A study of Mus musculus with 6 samples.

Results

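The SLC25 family of mitochondrial carriers was followed in the liver of mice that lack NEK7 in hepatocytes. Members were taken as all genes in the deposited table whose symbol is Slc25a followed by a number, which gave 46 of 17975 genes. Of these, 40 had enough reads for the test, and the remaining 6 are accounted for by their counts below. RNA was sequenced from whole liver of 3 Hom mice and 3 WT mice, 1 liver per mouse. Hom mice were homozygous for floxed Nek7 (NEK7 fl/fl) and carried Cre driven by the albumin promoter (Alb-Cre+), so the deletion is directed at hepatocytes. Whether the other cells of the liver kept the gene was not tested here. WT mice were the controls with NEK7. The study gives ages for some of its mice, but the sources used here tie none to the sequenced livers.

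SLC25 proteins sit in the inner membrane of the mitochondrion and move solutes that the membrane itself does not let through, among them ADP and ATP, phosphate, citrate, amino acids, carnitine esters, nucleotides and cofactors. Most work as exchangers, so that export of one solute is tied to import of another. In liver they join mitochondrial and cytosolic steps of the urea cycle, gluconeogenesis, lipid synthesis and fatty acid oxidation, and several solutes are served by a pair of related carriers of which hepatocytes use mainly one.

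Each library held between 19349418 and 19730236 estimated counts. Nek7, the targeted gene, had 1127, 1077 and 1036 counts in the WT livers and 310, 439 and 387 in the Hom livers, a log2 fold change of -1.99 (SE 0.10, adjusted p = 1.59e-04, edgeR quasi-likelihood with Benjamini-Hochberg correction). Hom replicate 1 had 0 counts of the Y-linked genes Ddx3y and Kdm5d, which had at least 630 and 243 counts in every other liver. The paper reports mice of both sexes in its knockout experiments, but the labels give no sex for these livers, and a part of sex in the results was not tested. WT replicate 1 and Hom replicate 1 each differed from the other livers of their group more than those differed from each other. The composition of the libraries differed between groups as well: the TMM factors, which scale libraries to the bulk of genes, were 0.806 to 0.924 in WT and 1.09 to 1.23 in Hom livers. All values below in CPM (counts relative to library size) and all log2 fold changes (Hom over WT) use TMM factors unless library size alone is named. Markers of other cells moved with the groups: of 38 hepatocyte markers tested 25 were lower and 1 higher (summed 219700 to 258300 CPM in WT and 112600 to 164300 CPM in Hom livers), 11 of 12 cholangiocyte markers were higher (summed 74.4 to 107 CPM against 691 to 933 CPM), and 9 of 14 stellate and fibroblast markers were higher and 1 lower (summed 397 to 467 CPM against 875 to 947 CPM). With library size alone, 12 hepatocyte markers were lower and 3 higher, 11 cholangiocyte markers were higher, and 12 stellate and fibroblast markers were higher and 1 lower. None of these markers was at 0 in all livers. Over all genes tested, 20.1% were lower and 21.5% higher with TMM factors, and 4.65% lower and 47.6% higher with library size alone. In whole liver, fewer cells of a type and less RNA per cell cannot be told apart, and the part of cell make-up in the results for the carriers was not tested.

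Of the 40 SLC25 genes tested, 19 passed the threshold (an adjusted p below 0.05) as lower in Hom mice, 3 passed as higher and 18 did not pass. That is 47.5% of the members lower, beside 20.1% of all 13805 genes tested, and 7.5% higher, beside 21.5% of all genes. The median log2 fold change of the members was -0.34, and that of all genes was -0.0018. The highest Hom value was below the lowest WT value for 20 members, where 27.0% of all genes did so, and the reverse held for 4 members, where 28.7% of all genes did so. Direction depended in part on scaling. With library size alone the median of all genes moved to 0.45 and that of the members to 0.11, and 14 of the 31 members with a negative change turned positive. On that scale 7 members (17.5%) were lower, beside 4.65% of all genes, and 7 (17.5%) were higher, beside 47.6% of all genes. Slc25a16, Slc25a20, Slc25a21, Slc25a32, Slc25a33, Slc25a34 and Slc25a47 were lower under all 4 scalings and in each of the 13 alternatives with no minimum fold change. Slc25a4 and Slc25a24 were higher in all of them, and Slc25a36 was higher under all 4 scalings but not in every alternative. Without Hom replicate 1, 22 members (55.0%) were lower and 3 (7.5%) were higher, beside 18.1% and 19.2% of all 14077 genes then tested. Slc25a10, Slc25a11, Slc25a39 and Slc25a51 passed as lower only then, and Slc25a30 no longer did.

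**Figure D1:**
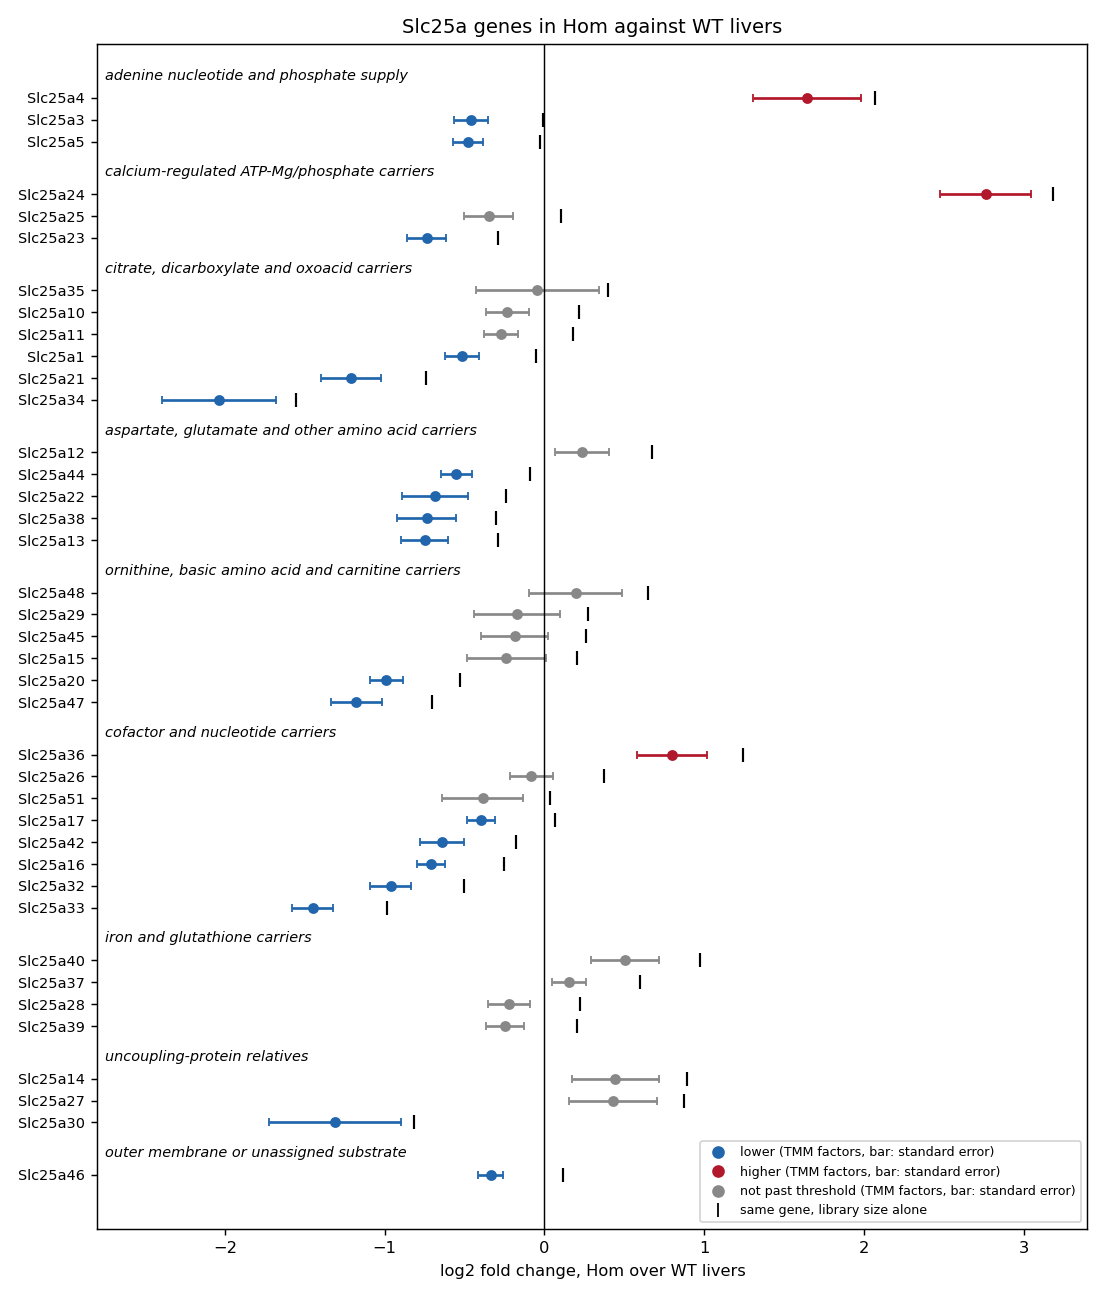
Log2 fold change (Hom over WT, horizontal axis) of the SLC25 genes tested and described in the text, grouped by the role under which each was listed. Points show the fit with TMM factors, bars its standard error and colours the call. Black ticks show the same gene with library size alone, which lie to the right of the points for all genes shown, so that fewer ticks than points are below 0. Values run from -2.04 for Slc25a34 to 2.76 for Slc25a24.

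The level of the family is best read per length, in TPM (transcript abundance relative to length and to the library total). The 8 most abundant members in WT livers were Slc25a39, Slc25a5, Slc25a47, Slc25a3, Slc25a23, Slc25a1, Slc25a22 and Slc25a15, which together held 74.1% ± 1.75 (SD, n = 3) of the summed SLC25 TPM in WT and 72.5% ± 0.82 (SD, n = 3) in Hom livers. The summed TPM was 3338, 3101 and 2961 in WT and 3393, 3371 and 3297 in Hom livers. The highest WT liver lay within the Hom range and the difference did not pass (exact two-sided permutation test, p = 0.2, where 3 against 3 livers cannot go below 0.1). TPM sums to the same total in every liver, which FPKM, made relative to gene length and library size, need not do. The sum of the FPKM values pointed the other way, with 1859 ± 31.4 in WT and 1774 ± 32.1 in Hom livers (SD, n = 3, exact permutation p = 0.1).

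Shares within the family do not depend on how libraries are scaled. Slc25a47, a carrier expressed mainly in hepatocytes, held 12.6, 14.4 and 11.6% of the summed SLC25 TPM in the WT livers and 6.26, 9.41 and 9.15% in the Hom livers, all of them lower. Slc25a39, which imports glutathione into mitochondria, held 14.3, 14.0 and 14.1% against 17.4, 17.4 and 16.4%, all of them higher. Slc25a23 went from 7.98, 7.26 and 7.16% to 6.69, 6.16 and 6.39%, again without overlap. Each of these has an exact permutation p = 0.1, the smallest the design allows. The other 5 of the 8 overlapped between groups. Slc25a47 moved from the 3rd to the 4th rank by mean TPM, and Slc25a39 and Slc25a5 stayed at the 1st and 2nd.

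**Figure D2:**
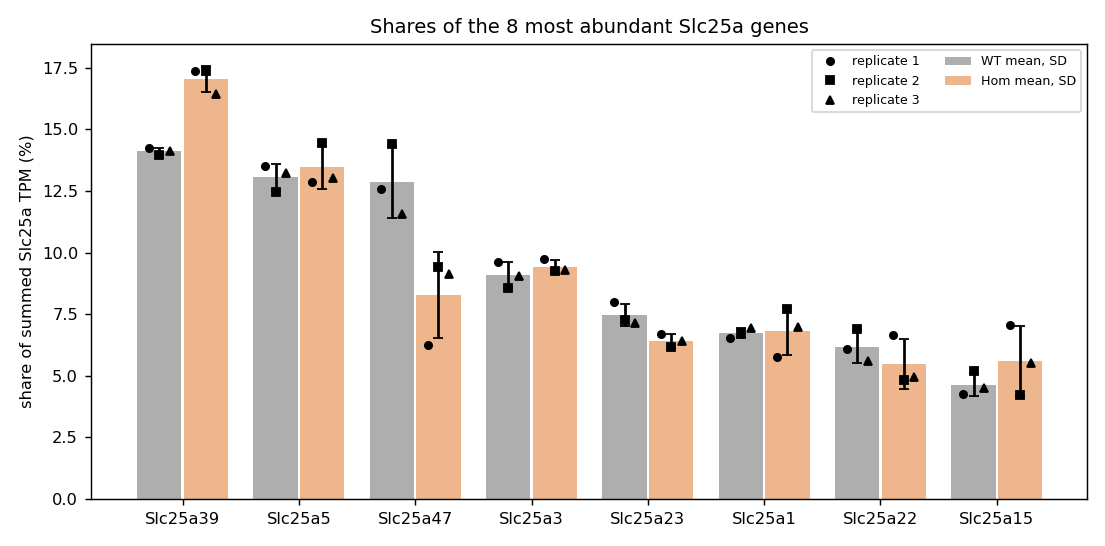
Share of the summed SLC25 TPM (percent, vertical axis) held by each of the 8 most abundant members. Bars are group means from 0, error bars the SD of 3 livers and symbols the single livers. Slc25a47 dropped from a mean of 12.9% to 8.27% and Slc25a39 went from 14.1% to 17.1%, while Slc25a5 and Slc25a3 overlapped between groups.

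The carriers that supply oxidative phosphorylation with ADP and phosphate split by isoform. Slc25a5, the ADP/ATP translocase most abundant in liver, had 344, 359 and 360.4 CPM in WT and 267, 259 and 237 CPM in Hom livers. Every Hom liver was under every WT liver, with a log2 fold change of -0.48 (SE 0.10, adjusted p = 0.00807, edgeR quasi-likelihood with Benjamini-Hochberg correction), but with library size alone the change was -0.02 and did not pass (edgeR adjusted p = 0.857). Slc25a4, the ADP/ATP translocase of heart and muscle, had 5.75, 5.32 and 7.19 CPM in WT and 29.5, 12.2 and 15.6 CPM in Hom livers. The groups did not overlap, and Hom replicate 1 was the highest. Its log2 fold change was 1.64 (SE 0.34, edgeR adjusted p = 0.00911), and 1.19 without Hom replicate 1 (edgeR adjusted p = 0.00664). Slc25a3, the phosphate carrier, had 286, 289 and 289 CPM in WT and 236, 194 and 197 CPM in Hom livers. It fell by 0.46 on the log2 scale (SE 0.11, edgeR adjusted p = 0.0142) with no overlap. That call was lost with library size alone (log2 fold change -0.01) and without Hom replicate 2 or 3 (edgeR adjusted p = 0.0530 and 0.0579). Slc25a31, the translocase of the testis, had at most 3 counts in any liver.

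The promoters of the ADP/ATP pair are shown because these related genes changed in opposite directions. Each window runs from 250 bases before to 50 bases after the gene's start in RefSeq, on GRCm38.p6. Capitals mark CCAAT and the GC box GGGCGG on either strand. Slc25a5 lies at chrX:36795347-36795646 on the plus strand and Slc25a4 at chr8:46211013-46211312 on the minus strand.
Slc25a5: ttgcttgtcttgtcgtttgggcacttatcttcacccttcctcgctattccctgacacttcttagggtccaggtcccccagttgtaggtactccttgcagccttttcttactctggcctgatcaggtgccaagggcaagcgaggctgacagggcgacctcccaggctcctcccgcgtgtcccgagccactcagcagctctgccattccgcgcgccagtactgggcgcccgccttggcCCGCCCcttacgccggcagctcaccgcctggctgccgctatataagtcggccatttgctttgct
Slc25a4: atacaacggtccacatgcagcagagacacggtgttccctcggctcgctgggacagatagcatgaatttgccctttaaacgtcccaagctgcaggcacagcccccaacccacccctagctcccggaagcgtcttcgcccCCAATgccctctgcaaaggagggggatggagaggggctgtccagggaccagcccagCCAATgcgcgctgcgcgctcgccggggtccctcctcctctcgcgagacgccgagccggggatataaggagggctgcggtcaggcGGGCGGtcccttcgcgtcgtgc
The Slc25a5 window held 1 GC box and no CCAAT, and the Slc25a4 window held 2 CCAAT and 1 GC box. Slc25a4 and Slc25a5 transcripts are alike in sequence, and how the authors' counting split reads between such copies is not given in the sources used here. The estimated counts of both genes were whole numbers in all 6 livers.

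The calcium-regulated carriers of ATP-Mg and phosphate, which adjust the adenine nucleotide pool of the matrix, also split. Slc25a24 had 3.46, 1.92 and 2.09 CPM in WT and 22.0, 14.1 and 15.1 CPM in Hom livers. All Hom livers were far above all WT livers, a 6.79-fold difference and the largest rise in the family (log2 fold change 2.76, SE 0.28, adjusted p = 8.16e-04, edgeR quasi-likelihood with Benjamini-Hochberg correction). Without Hom replicate 1 it was 2.54. Slc25a23, the form with the highest level in liver, had 540.1, 556 and 517 CPM in WT and 367, 292 and 308 CPM in Hom livers. It was lower in each Hom liver, by -0.74 on the log2 scale (SE 0.12, edgeR adjusted p = 0.00418), and its call was lost with library size alone (-0.29, edgeR adjusted p = 0.0700). Slc25a25 had 191, 182 and 238 CPM in WT and 173, 133 and 173 CPM in Hom livers, which did not overlap, but the change of -0.35 did not pass (edgeR adjusted p = 0.104). The Slc25a24 promoter, at chr3:109122899-109123198 of GRCm38.p6 on the plus strand, is given as that of the member with the largest rise, with its 2 GC boxes in capitals on the opposite strand.
Slc25a24: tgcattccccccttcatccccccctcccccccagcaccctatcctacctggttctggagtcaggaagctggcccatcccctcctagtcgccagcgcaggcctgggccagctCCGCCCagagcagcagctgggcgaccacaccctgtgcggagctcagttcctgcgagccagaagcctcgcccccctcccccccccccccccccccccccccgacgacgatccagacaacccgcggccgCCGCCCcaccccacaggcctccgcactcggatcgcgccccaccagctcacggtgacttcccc
Slc25a54, a related gene that lies next to Slc25a24 on chromosome 3 in RefSeq, had 1 count in Hom replicate 2 and 0 in every other liver.

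Of 6 carriers of citrate, dicarboxylates and oxoacids, 3 were lower and none passed in the other direction. Their median log2 fold change was -0.39 (0.06 with library size alone). Slc25a34, a carrier whose substrate is not firmly assigned, showed the largest fall of the family. It had 5.19, 12.1 and 11.9 CPM in WT and 2.33, 2.85 and 1.90 CPM in Hom livers, all lower, with a log2 fold change of -2.04 (SE 0.36, adjusted p = 0.00499, edgeR quasi-likelihood with Benjamini-Hochberg correction). The WT livers spread widely, and replicate 1 was the lowest of them. Slc25a21, which carries 2-oxoadipate from lysine and tryptophan breakdown, had 10.2, 13.0 and 14.0 CPM in WT and 4.34, 5.40 and 6.29 CPM in Hom livers, again without overlap (log2 fold change -1.21, SE 0.19, edgeR adjusted p = 0.00334). Slc25a1, the citrate carrier that exports acetyl units for lipid synthesis, had 218, 254 and 247 CPM in WT and 156, 180.2 and 166 CPM in Hom livers. Every Hom liver was lower, by -0.52 (SE 0.10, edgeR adjusted p = 0.00827), and with library size alone the change was -0.05 and did not pass (edgeR adjusted p = 0.735).

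The dicarboxylate carrier Slc25a10 had 192, 219 and 234 CPM in WT and 214, 164 and 172 CPM in Hom livers. The 2-oxoglutarate/malate carrier Slc25a11 had 61.5, 64.3 and 69.3 CPM in WT and 61.5, 49.3 and 50.7 CPM in Hom livers. In both, Hom replicate 1 lay within the WT range and the groups overlapped, with log2 fold changes of -0.23 and -0.27 (edgeR adjusted p = 0.203 and 0.0781). With library size alone these were 0.22 and 0.18, and without Hom replicate 1 both passed as lower, at -0.36 and -0.38 (edgeR adjusted p = 0.0496 and 0.0190). Slc25a35 had a log2 fold change of -0.04 and did not pass.

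Amino acid carriers were among the groups with the most members lower: 4 of 5 tested, with a median of -0.69 (-0.24 with library size alone, where none was lower and 1 was higher). Slc25a13, the aspartate/glutamate carrier of liver and a part of the malate-aspartate shuttle and of urea synthesis, had 166, 230.2 and 220 CPM in WT and 132, 109 and 126 CPM in Hom livers. All Hom livers were lower, by -0.75 (SE 0.15, adjusted p = 0.00778, edgeR quasi-likelihood with Benjamini-Hochberg correction). Its relative Slc25a12, the form of brain and muscle, had 16.7, 16.4 and 16.5 CPM in WT and 25.0, 16.4 and 17.1 CPM in Hom livers. Hom replicate 1 stood well above the WT values, while Hom replicate 2 lay just under them and Hom replicate 3 just above. The change of 0.24 (edgeR adjusted p = 0.301) was 0.02 without Hom replicate 1. Slc25a22, a glutamate carrier, had 315, 403 and 310.4 CPM in WT and 281, 176 and 183 CPM in Hom livers. The groups did not overlap, but the call (-0.69, SE 0.21, edgeR adjusted p = 0.0365) held in 5 of 13 alternatives and was lost without any single liver other than Hom replicate 1 (edgeR adjusted p = 0.0505 to 0.117). Slc25a44, a branched-chain amino acid carrier, was lower by -0.55 (edgeR adjusted p = 0.00520), and Slc25a38, the glycine carrier of heme synthesis, by -0.74 (edgeR adjusted p = 0.0191). The Slc25a38 call was lost without Hom replicate 2 or 3 (edgeR adjusted p = 0.0618 and 0.0680). Alas2, the erythroid enzyme that uses glycine for heme, was lower (-1.67, edgeR adjusted p = 0.00394), but the erythroid markers did not fall as a set. Of the 8 tested, 2 passed as lower and 0 as higher, and their median change was 0.42 (0.83 with library size alone). The summed CPM of 12 erythroid markers was 439 to 1122 in WT and 551 to 1684 in Hom livers. Slc25a18, a glutamate carrier of other tissues, had 0 to 7 counts.

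Of 6 members tested that were grouped under carriers of ornithine, basic amino acids and carnitine, 2 were lower and 4 did not pass. The grouping does not fix a substrate for Slc25a47 or Slc25a48. Slc25a47 had 394, 510 and 387 CPM in WT and 159, 207 and 204 CPM in Hom livers. Each Hom liver was well under the lowest WT liver, and the Hom mean was 44.2% of the WT mean (log2 fold change -1.18, SE 0.16, adjusted p = 0.00206, edgeR quasi-likelihood with Benjamini-Hochberg correction). Slc25a20, the carnitine/acylcarnitine carrier that brings long-chain fatty acids to β-oxidation, had 83.9, 101 and 106 CPM in WT and 47.5, 48.8 and 50.1 CPM in Hom livers. The 3 Hom livers were nearly equal and all lower, at 50.3% of the WT mean (log2 fold change -0.99, SE 0.10, edgeR adjusted p = 8.16e-04). Slc25a15, the ornithine carrier of the urea cycle, had 297, 409 and 336 CPM in WT and 401, 208 and 275 CPM in Hom livers. Hom replicate 1 was near the top of the WT range and the other Hom livers under it, so the groups overlapped (-0.24, edgeR adjusted p = 0.467, and 0.21 with library size alone). Slc25a29, Slc25a45 and Slc25a48 had log2 fold changes of -0.17, -0.19 and 0.19 and did not pass. Slc25a2, a further ornithine carrier, had 0 to 7 counts.

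The carriers of cofactors and nucleotides were the largest group, with 5 of 9 lower and 1 higher (3 lower and 1 higher with library size alone). Slc25a33, which imports pyrimidine nucleotides, had 20.7, 22.1 and 22.4 CPM in WT and 6.67, 8.62 and 8.49 CPM in Hom livers. The livers of each group were close together and the groups far apart, at 36.5% of the WT mean and with the smallest adjusted p of the family (log2 fold change -1.45, SE 0.13, adjusted p = 5.08e-04, edgeR quasi-likelihood with Benjamini-Hochberg correction). Slc25a36, the other pyrimidine nucleotide carrier, had 5.64, 3.27 and 4.24 CPM in WT and 6.95, 7.92 and 8.06 CPM in Hom livers. All Hom livers were higher (log2 fold change 0.80, SE 0.22, edgeR adjusted p = 0.0247), but the call was lost without WT replicate 2 or 3 or Hom replicate 2 or 3 (edgeR adjusted p = 0.0618 to 0.0810). It was also lost with the replicate number as a block (edgeR adjusted p = 0.0524).

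The promoters of this pair are given for the same reason as those of the ADP/ATP pair and with the same marking. Slc25a33 lies at chr4:149774218-149774517 and Slc25a36 at chr9:97110992-97111291 of GRCm38.p6, both on the minus strand.
Slc25a33: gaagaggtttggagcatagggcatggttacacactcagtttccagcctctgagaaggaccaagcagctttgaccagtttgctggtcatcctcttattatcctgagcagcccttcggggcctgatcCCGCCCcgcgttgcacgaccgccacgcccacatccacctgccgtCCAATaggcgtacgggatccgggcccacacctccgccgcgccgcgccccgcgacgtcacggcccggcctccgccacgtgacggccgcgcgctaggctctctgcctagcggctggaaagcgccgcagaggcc
Slc25a36: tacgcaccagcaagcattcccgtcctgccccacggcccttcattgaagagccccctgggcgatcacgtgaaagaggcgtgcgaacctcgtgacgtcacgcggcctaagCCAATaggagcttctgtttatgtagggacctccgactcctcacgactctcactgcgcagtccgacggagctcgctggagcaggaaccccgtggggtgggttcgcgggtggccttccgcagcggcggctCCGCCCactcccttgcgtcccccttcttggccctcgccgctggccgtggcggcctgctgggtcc
Each of these windows held 1 CCAAT and 1 GC box.

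Slc25a32, which carries folate and FAD, had 31.6, 41.1 and 30.4 CPM in WT and 18.5, 17.6 and 16.8 CPM in Hom livers, without overlap (log2 fold change -0.96, SE 0.13, adjusted p = 0.00197, edgeR quasi-likelihood with Benjamini-Hochberg correction). Slc25a16, linked to coenzyme A, had 64.2, 71.1 and 75.1 CPM in WT and 45.9, 41.6 and 41.2 CPM in Hom livers (-0.71, SE 0.09, edgeR adjusted p = 0.00158). Slc25a42, the coenzyme A carrier, had 99.6, 106 and 134 CPM in WT and 64.8, 72.6 and 80.1 CPM in Hom livers (-0.64, SE 0.14, edgeR adjusted p = 0.0100). For all 3 genes every Hom liver was under every WT liver, though Slc25a42 did not pass with library size alone. Slc25a17, the peroxisomal member of the family, had 52.0, 57.8 and 57.6 CPM in WT and 40.0, 41.1 and 46.0 CPM in Hom livers, lower by -0.40 (SE 0.09, edgeR adjusted p = 0.0115) with TMM factors and at 0.06 with library size alone. Slc25a26 and Slc25a51, carriers of S-adenosylmethionine and NAD, had log2 fold changes of -0.08 and -0.39 and did not pass. Slc25a51 passed as lower without Hom replicate 1 (-0.70, edgeR adjusted p = 0.0263).

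**Figure D3:**
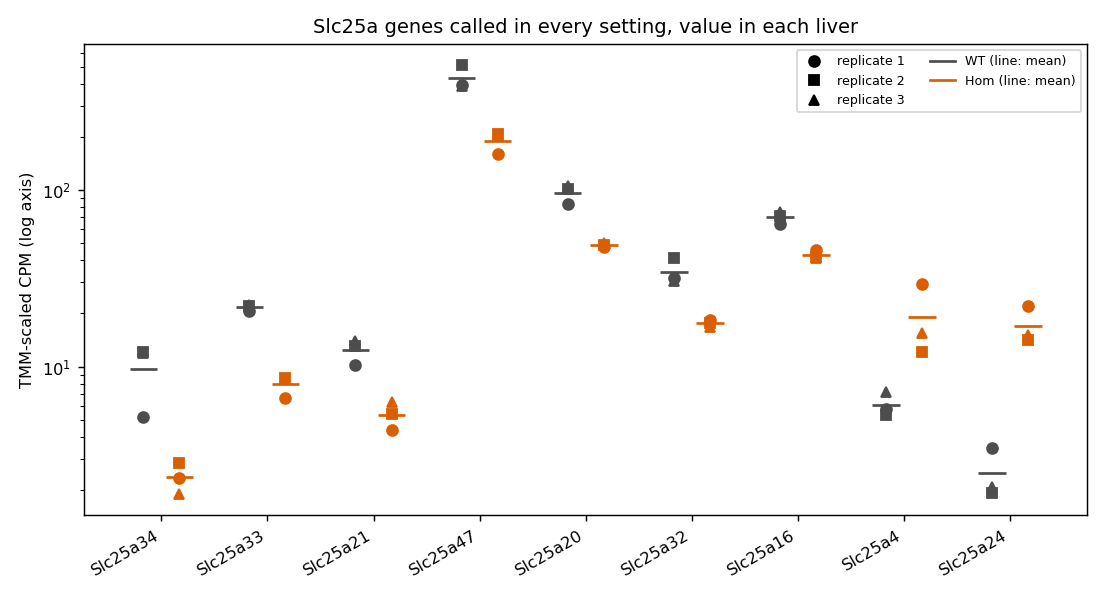
TMM-scaled CPM (log axis) in each of the 6 livers for the 9 SLC25 genes that kept their call in every alternative other than the minimum fold change, ordered by log2 fold change. Symbols are single livers and lines are group means. Groups do not overlap for any of the 9 genes, and the 3 Hom livers of Slc25a20 sit together between 47.5 and 50.1 CPM, under the lowest WT liver at 83.9 CPM.

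None of the 4 iron and glutathione carriers passed. Slc25a39 had 433, 480.4 and 459 CPM in WT and 433, 372 and 352 CPM in Hom livers, with Hom replicate 1 just under the lowest WT liver (-0.25, adjusted p = 0.136, edgeR quasi-likelihood with Benjamini-Hochberg correction, and 0.21 with library size alone). Its relative Slc25a40 had 2.90, 4.75 and 4.06 CPM in WT and 5.46, 5.28 and 5.86 CPM in Hom livers, all higher, but the change of 0.51 did not pass with TMM factors (edgeR adjusted p = 0.0945) and passed with library size alone (0.97, edgeR adjusted p = 0.00734). The mitoferrins, which import iron, overlapped between groups. Slc25a37 had 49.6, 38.2 and 44.1 CPM in WT and 50.5, 46.7 and 49.5 CPM in Hom livers (0.15, edgeR adjusted p = 0.279), and it passed as higher with library size alone (0.60, edgeR adjusted p = 0.0130). Slc25a28 had 22.1, 19.3 and 17.6 CPM against 18.2, 17.9 and 14.5 CPM (-0.22, edgeR adjusted p = 0.215).

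Among the relatives of the uncoupling proteins, Slc25a30 was lower and Slc25a14 and Slc25a27 did not pass. Slc25a30 had 8.99, 19.5 and 27.0 CPM in WT and 5.18, 10.1 and 7.03 CPM in Hom livers. It was the only 1 of the 22 genes called whose groups overlapped, and the call (log2 fold change -1.31, SE 0.42, adjusted p = 0.0410, edgeR quasi-likelihood with Benjamini-Hochberg correction) was lost without Hom replicate 1, 2 or 3 or WT replicate 2 or 3 (edgeR adjusted p = 0.0510 to 0.118). The call was also lost with library size alone (-0.81, edgeR adjusted p = 0.126) and with upper-quartile factors (-1.22, edgeR adjusted p = 0.0534). Slc25a14 had 2.07, 1.73 and 1.17 CPM in WT and 2.05, 2.39 and 2.33 CPM in Hom livers, which overlapped (0.44, edgeR adjusted p = 0.228). It passed as higher with library size alone (0.89, edgeR adjusted p = 0.0480). Slc25a27 had a change of 0.43 (edgeR adjusted p = 0.246). Slc25a46, a member of the outer membrane that acts in mitochondrial shape, had 41.2, 43.0 and 39.2 CPM in WT and 34.4, 32.2 and 31.0 CPM in Hom livers. It was lower in each Hom liver by -0.34 (SE 0.08, edgeR adjusted p = 0.0134), was at 0.12 with library size alone, and lost the call without Hom replicate 2 or 3. Slc25a43 and Slc25a53, whose substrates are unassigned, were too low to test.

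Ratios of related carriers within a liver are free of library scaling, and 10 pairs had enough counts for both members. Each ratio is the log2 of the count of the first gene over that of the second, and each comparison is an exact two-sided permutation test over the 6 livers. Slc25a4 over Slc25a5 was -5.90, -6.07 and -5.64 in WT and -3.18, -4.41 and -3.92 in Hom livers, a rise of 2.03 without overlap. Slc25a4 thereby made up 1.64% ± 0.24 of the TPM of the pair in WT and 6.68% ± 2.72 in Hom livers (SD, n = 3), so Slc25a5 remained by far the main form. Slc25a24 over Slc25a25 was -5.78, -6.54 and -6.81 in WT and -2.98, -3.24 and -3.52 in Hom livers, the widest shift at 3.13. Slc25a33 over Slc25a36 was 1.87, 2.75 and 2.39 in WT and -0.06, 0.12 and 0.07 in Hom livers, a shift of -2.29. The pyrimidine carriers thus went from a clear excess of Slc25a33 counts to about equal counts, and Slc25a33 went from 92.8% ± 2.13 to 72.9% ± 1.37 of the TPM of the pair (SD, n = 3).

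Slc25a12 over Slc25a13 was -3.31, -3.81 and -3.73 in WT and -2.40, -2.73 and -2.88 in Hom livers, higher by 0.95 and with Slc25a12 going from 7.47% ± 1.34 to 13.4% ± 2.06 of the TPM of the pair (SD, n = 3). Slc25a39 over Slc25a40 differed by -0.78, Slc25a14 over Slc25a30 by 1.70 and Slc25a37 over Slc25a28 by 0.39, each without overlap. The groups nearly touched in the last of these, where the closest livers lay at 1.32 in WT and 1.39 in Hom, and in Slc25a14 over Slc25a30, where they lay at -2.11 in WT and -2.07 in Hom. The Slc25a14 over Slc25a30 difference was 1.13 without WT replicate 3 and 2.32 without WT replicate 1. These 7 pairs reached p = 0.1 (0.143 after adjustment over the 10 pairs), which is the smallest value the exact permutation test can give here and does not pass 0.05. The other 3 pairs overlapped: Slc25a10 over Slc25a11 differed by 0.04 (exact p = 0.5), Slc25a16 over Slc25a42 by -0.07 (exact p = 0.8) and Slc25a23 over Slc25a25 by -0.39 (exact p = 0.2). In all 7 pairs without overlap, the gene that gained was the one with the smaller share of the TPM of the pair in WT livers. For the mitoferrins this was Slc25a37, at 40.9% ± 3.12 in WT and 46.4% ± 4.01 in Hom livers (SD, n = 3), and these TPM shares, unlike the count ratios, overlapped. By counts Slc25a37 was the larger mitoferrin. Of the other 3 pairs, Slc25a10/Slc25a11 and Slc25a16/Slc25a42 went against this by small differences, and Slc25a23/Slc25a25 went with it. Among all single genes, 27.0% had every Hom liver under every WT liver and 28.7% the reverse. No such share was taken over pairs of other genes.

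**Figure D4:**
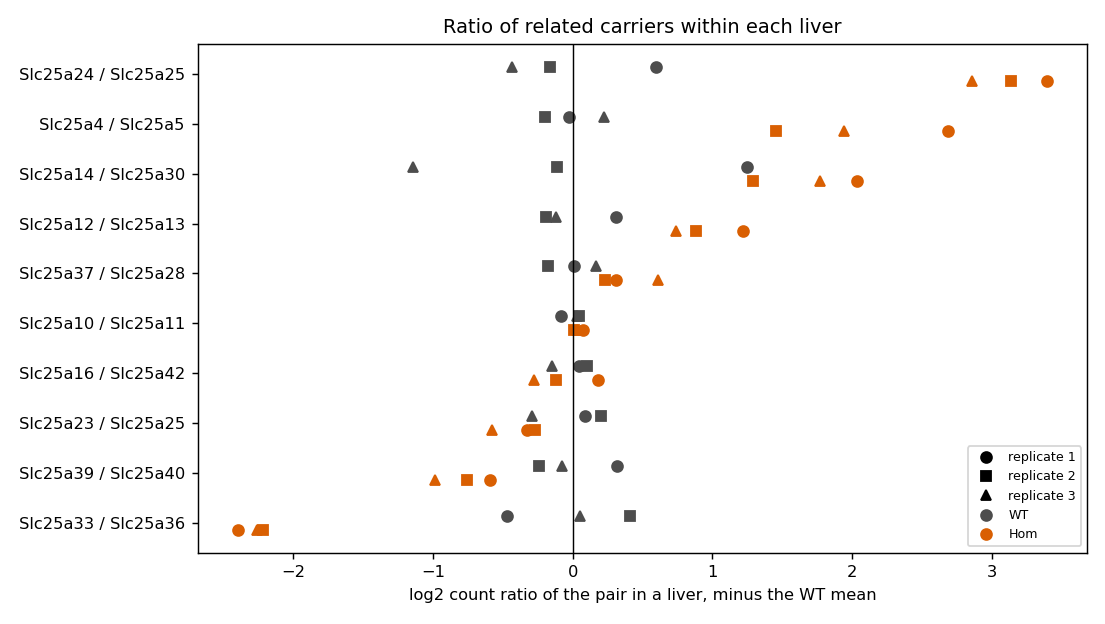
Log2 ratio of the counts of related carriers within each liver, minus the mean of the WT livers (horizontal axis), for the 10 pairs with enough counts. Symbols are single livers, grey for WT and orange for Hom. The Hom livers of Slc25a24/Slc25a25 and Slc25a33/Slc25a36 lie on opposite sides of the WT livers because the less abundant gene is named first in one and second in the other, and Slc25a10/Slc25a11 stayed together with a difference of 0.04.

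RefSeq gave promoter windows of 300 bases for 36 of the 46 members, and for 16 lower, 3 higher and 12 other tested members these were searched on both strands. CCAAT stood in 11 of 16 lower, 2 of 3 higher and 5 of 12 other members, and in 37.5% of the windows of all tested genes. The GC box GGGCGG stood in 13 of 16, 3 of 3 and 11 of 12, and in 59.0% of those windows. TATAAA stood in Slc25a21 alone, beside 7.98% of the windows. The nuclear respiratory factor core GCGCATGCG and the estrogen-related receptor element TCAAGGTCA were in none of these members (3.20% and 0.292% of the windows), and the AP-1 site TGANTCA was in Slc25a13 and Slc25a11 (5.60%). Shares over members count a gene once if any of its windows matched, while those over all genes count windows.

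Enzymes and transporters that work beside the carriers were read from lists. Of 5 carnitine shuttle enzymes 4 were lower, with a median log2 fold change of -1.15 (-0.69 with library size alone), among them Cpt2, which releases the acyl groups that Slc25a20 brings in (-1.15), and Crot (-1.18). Of 6 malate-aspartate and glycerophosphate shuttle enzymes 4 were lower, with a median of -0.75 (-0.29 with library size alone), among them Gpd1 (-0.90) and Mdh1 (-0.75). Only 1 of 6 urea cycle enzymes (Otc, -0.86) and 1 of 6 enzymes of citrate export and use (Cs, -0.61) were lower, and none of either list was higher. With library size alone, the urea cycle list had 1 lower and 1 higher, and the citrate list had none lower and 2 higher, with Cs at -0.14 (edgeR adjusted p = 0.442). The counts with TMM factors, here and in the next paragraph, compare with 20.1% of all genes lower and 21.5% higher. Those with library size alone compare with 4.65% of all genes lower and 47.6% higher.

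Of 16 other inner membrane transporters 6 were lower and 2 higher, but 1 was lower and 7 were higher with library size alone. They included Abcb10 (-0.81) and the calcium uniporter regulator Micu2 (1.13). The pyruvate carrier subunits Mpc1 and Mpc2 were among the lower ones with TMM factors. Of 3 outer membrane channels only Vdac1 passed, at -0.33, and it was at 0.12 with library size alone, where the other 2 passed as higher. Of 13 genes of the machinery that imports carriers, 4 were lower and none higher, with a median of -0.22, but with library size alone none was lower and 4 were higher, with a median of 0.23. Among 3 SLC25 proteins that go by other symbols, the outer membrane member Mtch2 was lower (-0.65, but -0.19 and not past the threshold with library size alone) and the uncoupling protein Ucp2, which macrophages and other non-parenchymal cells express, was higher (1.32, at 43.2 ± 15.7 CPM in WT and 107 ± 13.3 CPM in Hom livers, SD, n = 3). Of 17 macrophage markers 4 were higher and 3 lower (summed 385 to 917 CPM in WT and 632 to 867 CPM in Hom livers), and all 10 proliferation markers were higher (summed 5.13 to 15.4 CPM against 27.6 to 60.7 CPM). Of 13 endothelial markers 6 were lower and 1 higher, of 7 lymphocyte markers 2 were higher, of 8 erythroid markers 2 were lower, and of 6 neutrophil markers none passed. Scaled by library size alone, 10 macrophage markers were higher and 2 lower, and 3 endothelial markers were lower and 4 higher.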

How the data were processed

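RNA from 3 Hom and 3 WT livers was extracted with Trizol and sequenced on the DNBSEQ platform. The submitters' processing notes name HISAT2 2.0.4, Bowtie2 2.2.5, RSEM 1.2.12 and the build mm9, and strandedness is not given in the sources used here. The authors deposited, for 17975 genes, estimated counts (not scaled between libraries, 65.9% of them whole), FPKM and TPM per liver. The authors made the FPKM values relative to gene length and library size, and their deposited TPM values have an equal sum across livers. Deposited group means carry crossed names for all 17975 genes and were not used.

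Estimated counts were rounded and fitted in R 4.3.3 with edgeR 4.0.16 (filterByExpr, TMM factors, glmQLFit and glmQLFTest). Benjamini-Hochberg adjustment ran over all 13805 genes tested, with an adjusted p under 0.05 and no minimum fold change. The F statistic and the fold change gave the standard errors. CPM values are counts relative to TMM-scaled library size. Ratios of pairs had 0.5 added to each count, a pair needed a mean of 10 counts for each member, and permutation tests were run in SciPy 1.17.1. The procedures were tested on simulated data. Groups came from the sample labels, and nothing in them says whether the livers came from separate litters or days.

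Members and lists were chosen with earlier results of these data known. Values in every liver were given for the 8 members with the highest mean TPM in WT livers, for the 6 lowest and 6 highest log2 fold changes among called members (mean CPM of 1 or more), and for the members of each pair. Slc25a32 does not meet this rule and was added after its values were seen, because its call held in every alternative with no minimum fold change. Of other genes, at most 2 per list were given with values, those with the smallest adjusted p, besides Nek7, Alas2 (which meets that rule) and the pyruvate carrier subunits, named for their role. Same-numbered WT and Hom livers are different mice, and their deviations from the group means correlated at -0.079, -0.039 and -0.018, so no pairing was assumed. Alternatives were DESeq2 1.42.0, library size alone, upper-quartile factors, a replicate block, no filter, a filter of at least 10 counts in every liver, a loess correction for gene length, a minimum log2 fold change of 1 in either direction, and each liver left out in turn. Promoter windows were taken from RefSeq on GRCm38.p6, and no coordinates of the files' build were used. Slc25a41 and Slc25a52 were not analysed here. Counts and medians cover all tested members, of which 1 is not reported here by name.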

Additional observations from a re-analysis of the deposited data

How the results depend on the processing

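Across the 29 members that met the rule for values in every liver, 377 comparisons with an alternative were made: 332 kept direction and side of the threshold, 30 lost the call, 7 gained one and 8 reversed, all 8 with library size alone. Those were Slc25a10 (0.22), Slc25a11 (0.18), Slc25a15 (0.21), Slc25a17 (0.06), Slc25a25 (0.10), Slc25a28 (0.22), Slc25a39 (0.21) and Slc25a46 (0.12, all log2 fold changes). With library size alone the median of the members was 0.11, 7 members were lower and 7 higher, and 642 and 6574 of all genes were lower and higher. By construction that scaling leaves out the TMM factors, which differ between the groups, and it moved the share of all calls that were higher from 51.7% to 91.1% (62.8% with upper-quartile factors). With a minimum log2 fold change of 1 in either direction, 5 members were lower and 2 higher, and 575 and 1825 of all genes were lower and higher. DESeq2, the filter of 10 counts, no filter and the length correction each gave 19 lower and 3 higher members, and upper-quartile factors gave 17 and 3.

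Leaving out 1 liver at a time gave 14 to 22 lower and 2 to 3 higher members, and 1767 to 2750 of all genes lower, the fewest without Hom replicate 3 (1767) or 2 (1829), where 14 members were lower. Under these the Slc25a10/Slc25a11 ratio differed by -0.00187 to 0.0628, negative without WT replicate 1, and the Slc25a16/Slc25a42 ratio by -0.199 to 0.0320, positive without Hom replicate 3. The summed SLC25 TPM was 7.03% higher in Hom livers (4.16 to 10.6% with 1 liver left out) and the summed FPKM differed by -4.61%. Why these signs differ was not tested.

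The replicate numbers do not mark shared mice. With the replicate number as a block, 18 members were lower and 2 higher, and 2214 and 2383 of all genes. The calls of Slc25a22 and Slc25a36 were lost (adjusted p = 0.0562 and 0.0524, edgeR). In the pairing of same-numbered livers the ratios of the 10 pairs were the same by construction: 2.03 for Slc25a4/Slc25a5, 0.95 for Slc25a12/Slc25a13, 0.04 for Slc25a10/Slc25a11, -0.39 for Slc25a23/Slc25a25, 3.13 for Slc25a24/Slc25a25, 0.39 for Slc25a37/Slc25a28, -0.78 for Slc25a39/Slc25a40, -2.29 for Slc25a33/Slc25a36, -0.07 for Slc25a16/Slc25a42 and 1.70 for Slc25a14/Slc25a30.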

Other observations

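The 6 SLC25 genes too low to test had between 0 and 16 counts in a liver. Slc25a43 had 2, 0 and 1 counts in WT and 4, 7 and 7 in Hom livers, and Slc25a18 had 3, 4 and 7 against 0, 2 and 1. Slc25a53 had 9, 8 and 2 against 13, 16 and 8, which overlap. Slc25a2 had 7, 1 and 0 counts in WT and 0, 3 and 2 in Hom livers, and Slc25a31 had 2, 1 and 0 against 1, 3 and 1.

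3 pairs of members are neighbours in the RefSeq order of protein-coding genes. Slc25a29 and Slc25a47, on chromosome 12, had log2 fold changes of -0.17 and -1.18. On chromosome 3 Slc25a54 was nearly without counts beside Slc25a24 at 2.76, and on chromosome X Slc25a43 lay beside Slc25a5 at -0.48.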
